A study of Mus musculus with 7 samples.

Results

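The genes described here encode the enzymes that make cholesterol and fatty acids and the proteins that control them. They were chosen by name, as 29 listed genes of sterol and fatty acid synthesis, and all 29 were found among the 23038 genes of the deposited table. Smart-seq2 libraries, which cover full-length cDNA from few cells, were made from haematopoietic stem cells (HSCs) of mouse bone marrow, gated by flow cytometry as Sca1, cKit and CD150 positive cells that lacked lineage markers and CD48. The control group held 3 libraries of Cre-negative C57BL/6 mice, and the mutant group held 4 libraries of Mx1-cre; Mettl3fl/fl mice on the same strain, each library from 150 cells. Both groups had received 5 intraperitoneal doses of 10 µg pIpC, a double-stranded RNA that induces interferon, and HSCs were collected 10 days after dosing ended. Cre is driven by the interferon-responsive Mx1 promoter, which acts in many cell types besides HSCs. The age of the mice is not stated in the labels. The comparison asks how loss of Mettl3, the methyltransferase that places N6-methyladenosine (m6A) on mRNA, is reflected in the RNA of these genes.

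Cells build cholesterol from acetyl-CoA through mevalonate, isoprenoids, squalene and lanosterol, and they build fatty acids from the same precursor through malonyl-CoA. Both routes are controlled by the sterol regulatory element binding proteins (SREBPs), membrane-bound transcription factors that SCAP escorts to the Golgi for cleavage when sterols are low and that INSIG proteins hold in the endoplasmic reticulum when sterols are high. SREBP-2, from Srebf2, acts mainly on sterol genes, and SREBP-1, from Srebf1, mainly on fatty acid genes. Dividing blood progenitors need both lipids for membranes.

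Promoter sequence is shown for 4 genes because the SREBPs act through short promoter elements together with the factor NF-Y, which binds CCAAT. Mvd and Idi1 are the members highest in the mutant mean relative to the control, and Srebf2 is the lowest. Among the 23 members with a promoter sequence at hand, only that of Hmgcs1 held an exact match to the full sterol regulatory element (SRE) motif. The 250 bases before the transcription start are given 5′ to 3′ on the gene's strand, from RefSeq on GRCm38.p6. Capitals mark CCAAT or its reverse complement, and in Hmgcs1 and Srebf2 the SRE motif or its shorter form.
Mvd, chr8:122443423-122443672, minus strand: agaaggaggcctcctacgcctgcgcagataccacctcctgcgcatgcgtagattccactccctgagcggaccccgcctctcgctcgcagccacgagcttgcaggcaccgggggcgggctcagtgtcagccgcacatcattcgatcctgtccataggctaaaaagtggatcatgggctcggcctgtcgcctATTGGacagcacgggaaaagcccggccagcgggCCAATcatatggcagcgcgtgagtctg
Idi1, chr13:8885356-8885605, plus strand: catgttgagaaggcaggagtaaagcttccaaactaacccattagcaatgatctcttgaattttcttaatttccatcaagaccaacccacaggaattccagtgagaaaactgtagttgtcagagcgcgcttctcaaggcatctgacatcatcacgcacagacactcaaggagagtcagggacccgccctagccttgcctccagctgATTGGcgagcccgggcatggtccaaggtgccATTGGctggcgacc
Hmgcs1, chr13:119690101-119690350, plus strand: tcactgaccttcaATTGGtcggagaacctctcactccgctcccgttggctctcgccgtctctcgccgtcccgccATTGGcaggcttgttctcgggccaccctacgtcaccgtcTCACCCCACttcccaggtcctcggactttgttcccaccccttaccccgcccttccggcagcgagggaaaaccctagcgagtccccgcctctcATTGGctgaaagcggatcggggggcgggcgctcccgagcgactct
Srebf2, chr15:82147019-82147268, plus strand: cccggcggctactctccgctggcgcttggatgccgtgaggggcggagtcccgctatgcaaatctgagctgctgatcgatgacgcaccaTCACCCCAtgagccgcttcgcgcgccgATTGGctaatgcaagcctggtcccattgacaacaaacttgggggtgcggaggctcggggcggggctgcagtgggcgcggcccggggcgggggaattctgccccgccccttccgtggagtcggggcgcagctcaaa

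RefSeq promoters were matched for 23 of the 29 members. Those of Fads1, Fdft1, Fdps, Scd1, Scd2 and Sqle were not at hand and were not searched. Only exact matches to each motif were counted. The SRE motif TCACNCCAC, searched on both strands, was in the 250 bases of 1 of these 23, Hmgcs1, and in those of 1.22% of all 27025 genes with a promoter. A shorter form, TCACCCCA, which was added after the sequences had been seen and overlaps the SRE of Hmgcs1, was also in Srebf2, and in 1.54% of all genes. CCAAT was in 18 of the 23 members (78.3%) and in 37.5% of all genes. The GC box GGGCGG, which Sp1 binds, was likewise in 18 of the 23, against 35.4% of all genes, and the E-box CACGTG was in 6 of the 23 (26.1%), against 6.86% of all genes. All genes here include those with no reads in these cells, and these matches are descriptions of sequence, not of binding. The promoters of Mvd, Idi1, Hmgcs1 and Srebf2 all hold CCAAT or its reverse complement, in members that lay on either side of the control level.

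Short transcript sequences are shown for 5 members because Mettl3 methylates adenosine within GGACT and related motifs, often near stop codons. Each is the GGACT nearest the stop codon in the longest coding transcript of GENCODE M21, with 10 bases on either side, and capitals mark the motif. The window of Mvd lies in coding sequence 21 nucleotides before the stop codon, that of Fads1 in coding sequence 274 before it and that of Fdps in coding sequence 742 before it, and those of Srebf2 and Scd1 lie in the 3′ UTR, 456 and 1446 nucleotides after it.
Mvd, chr8:122434104-122434128, minus strand: aggccaggatGGACTgccacaacgg
Fdps, chr3:89095630-89095654, minus strand: atgacatcatGGACTcttccctcac
Srebf2, chr15:82204361-82204385, plus strand: tttgcattctGGACTtgatagacgc
Scd1, chr19:44396461-44396485, minus strand: agagcacccaGGACTtgctgctgtc
Fads1, chr19:10194064-10194088, plus strand: accggaatgtGGACTgggtctccac

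GGACT was in 28 of the 29 members, against 92.1% of the 9971 genes with at least 1 RPKM in a group and a coding transcript. The members had a median of 0.995 sites per kilobase and the other set 1.04. Idi1 was the member without a site. Acaca, with 12 sites, Lss, with 11, and Fasn, with 10, held the most. Of these Lss was higher in mutants and Acaca and Fasn were lower. The transcripts of Acaca and Fasn are long, 9513 and 10050 bases, and held 1.26 and 0.995 sites per kilobase. Per kilobase, Fads2, with 2.86, and Elovl1, with 2.76, held the most, and both were lower in mutants. Lss, with 2.36, and Mvd, with 2.28, came next, and both were higher. Methylation itself was not measured.

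The values are in RPKM (reads scaled to gene length and library size) and were read as the authors' means over the libraries of each group. There is 1 value per gene and group, so no spread between animals is known, no test was possible and no difference has a replicate check. Each difference was computed as log2((mutant + 1)/(control + 1)), where the 1 RPKM added to both means understates the change of low genes. A gene was counted as apart when this difference reached 2-fold, and a second count used 1.5-fold. Both are rules of size. If the values are means over libraries, the smallest may stand for 1 read per library. The harmonic mean library size would then be 24.1 M reads in controls and 28.7 M in mutants (M, megareads). Mettl3 itself, the check of the labels, was at 49.8 RPKM in controls and 9.60 in mutants, so that 19.3% of its control level was left. In RNA from sorted pools, fewer cells that express a gene and less RNA per cell cannot be told apart.

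None of the 29 members was 2-fold apart, either higher or lower. Of the 14539 genes with reads, 3.67% were 2-fold higher and 3.47% were 2-fold lower, so a set of 29 can hold none without standing out. This count depends on the pseudocount, and with a smaller one Idi1 and Scd1 passed 2-fold, as given below. At 1.5-fold, 2 members were higher, Mvd and Idi1, and 1 was lower, Srebf2, beside 13% of all genes higher and 10.4% lower. Among the members 13 were on the higher side and 16 on the lower, with a median log2 difference of -0.08, against 0.02 over all genes with reads. The summed level of the members was 731 RPKM in controls and 705 in mutants. Among the 18 members between 10 and 100 RPKM in controls, the median size of the difference was 0.30 on the log2 scale, against 0.29 over the 4844 genes in that range.

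**Figure D1:**
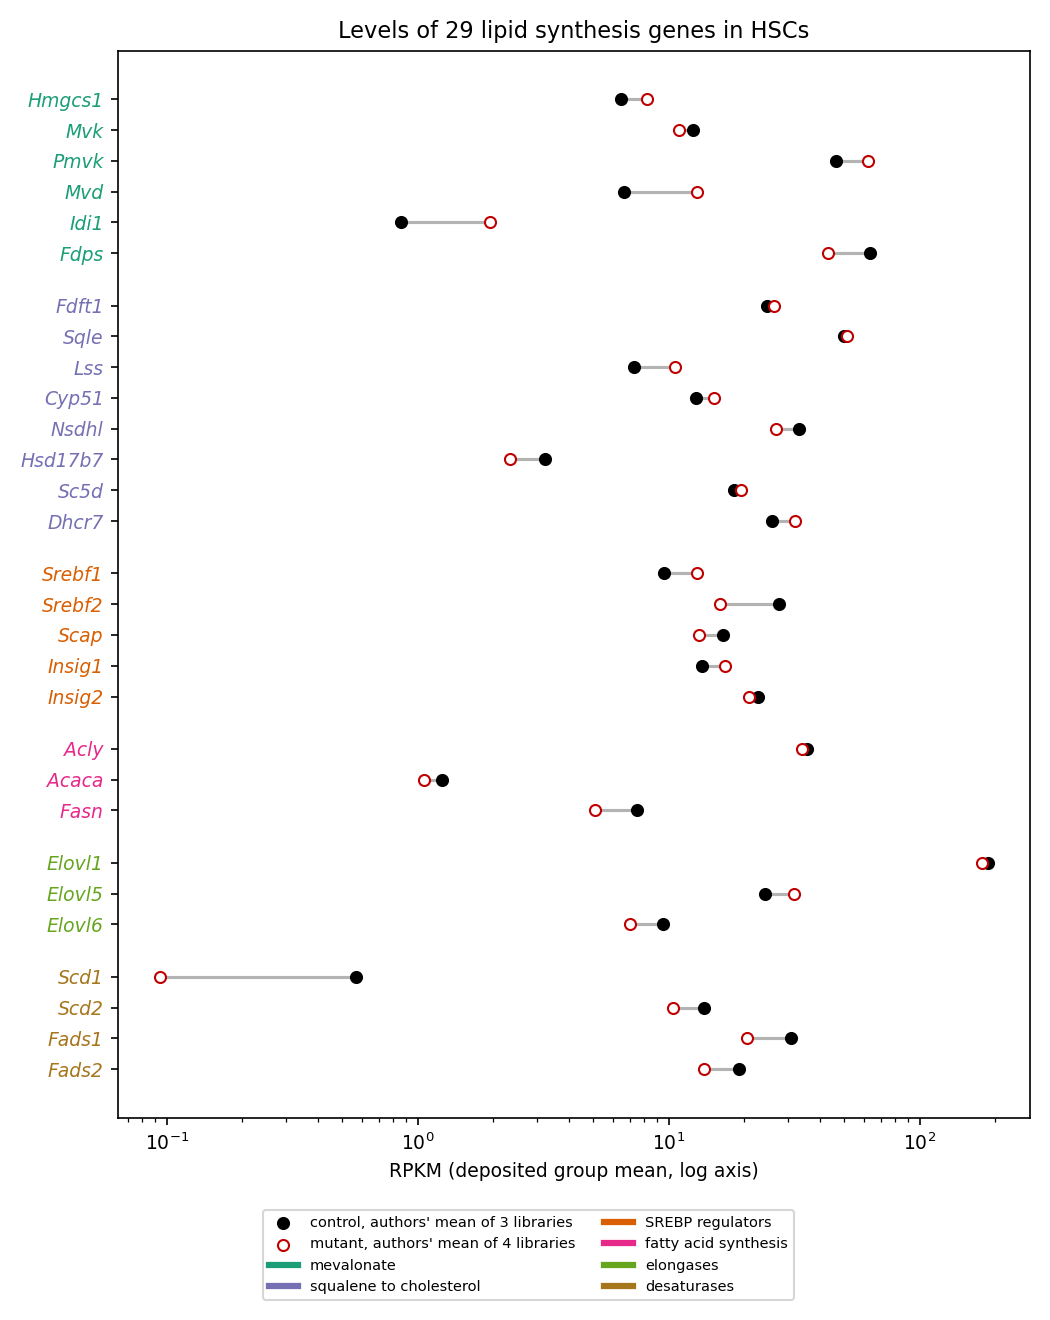
RPKM of the 29 members on a log axis, 1 row per gene, coloured by role. Filled points are the authors' control mean and open points their mutant mean, with no error bars because 1 value per group was deposited. Most pairs lie close together, Elovl1 has the highest level (188 and 177 RPKM), and the gap is widest for Scd1, which is low in both groups (0.569 and 0.0937 RPKM).

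**Figure D2:**
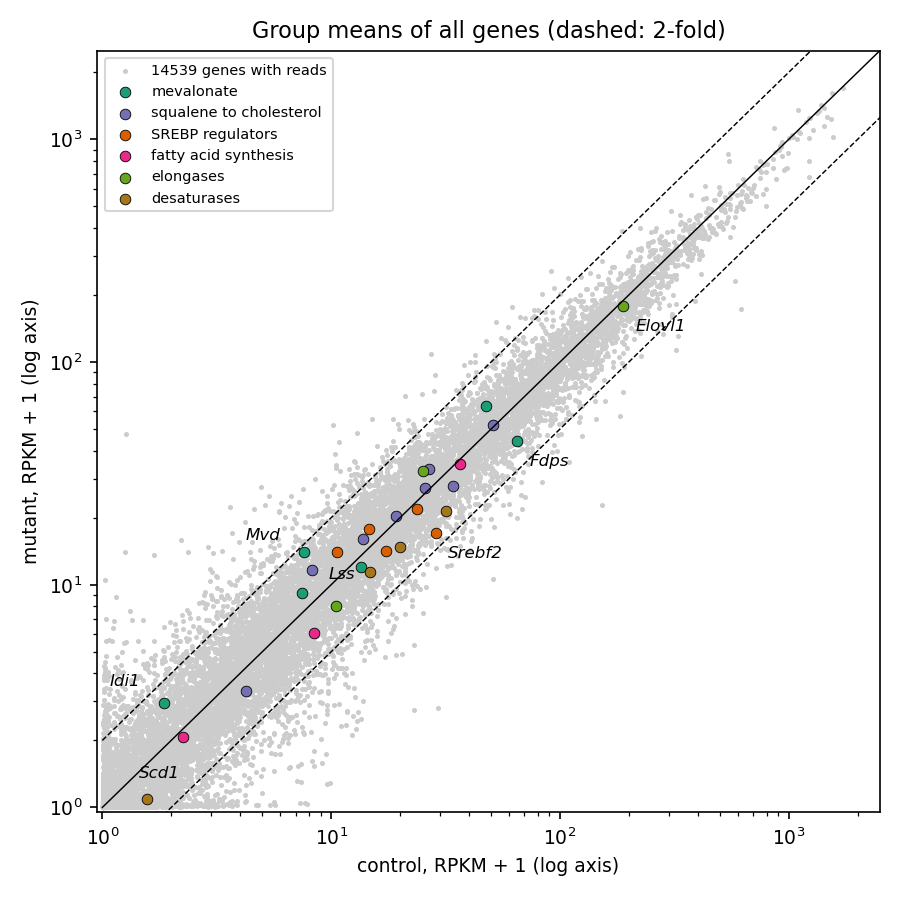
Mutant against control mean, as RPKM + 1 on log axes, for the 14539 genes with reads (grey) and the 29 members (coloured by role). The solid line is equality and the dashed lines are 2-fold. All members lie between the dashed lines, with Mvd nearest the upper and Srebf2 nearest the lower.

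The enzymes of the mevalonate route were mostly higher in the mutant mean, 4 of 6, and their median log2 difference was 0.37. Hmgcs1, which makes HMG-CoA, was at 6.43 RPKM in controls and 8.21 in mutants. Mevalonate kinase, Mvk, was at 12.5 and 11.0 RPKM, and phosphomevalonate kinase, Pmvk, at 46.3 and 62.6 RPKM. These kinases act in succession and lay on opposite sides of the control level. Mvd, the decarboxylase that makes isopentenyl pyrophosphate (chromosome 8, 122433596 to 122443422), was at 6.63 and 13.0 RPKM, 1.95-fold higher in mutants with a log2 difference of 0.87. Of the genes with at least 1 RPKM in a group, 12.5% were farther apart than Mvd. The ratio of Mvd to Mvk, which no scaling of the columns can change, was 0.530 in controls and 1.18 in mutants.

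Idi1, the isomerase that turns isopentenyl into dimethylallyl pyrophosphate (chromosome 13, 8885606 to 8892396), was the lowest of the sterol enzymes, at 0.856 RPKM in controls and 1.95 in mutants. The ratio of its deposited means was 2.27 and its log2 difference 0.67. At its annotated exon length, these levels correspond to about 71 reads per control library and 195 reads per mutant library. Fdps, which joins isoprenoid units into farnesyl pyrophosphate (chromosome 3, 89093588 to 89101967), went the other way, at 63.7 and 43.1 RPKM, a log2 difference of -0.55. Fdps and Pmvk lie 353 kb apart on chromosome 3, and Pmvk was higher and Fdps lower in mutants. Fdps was 74.4 times the level of Idi1 in controls and 22.1 times in mutants.

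Part of these values may include reads of other genes. Of the stretches of 100 bases in the longest coding transcript, 72.5% in Fdps were identical to transcripts of the annotated gene Gm43738 and 13.3% to the pseudogene Gm3571. In Idi1, 19.98% were identical to the pseudogene Gm13502, and in Acaca, 42.8% to the pseudogene Gm5182. How the authors counted such reads is not stated. In 17 of the 29 members no stretch of this length was shared with another gene on either strand. Fdft1 overlaps the cathepsin gene Ctsb on the opposite strand over 18.8% of its stretches, and Ctsb was at 148 and 139 RPKM.

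From squalene to cholesterol, 6 of 8 enzymes were higher in mutants. Their median log2 difference was 0.09, and 4 of the 8 lay within 1.2-fold of the control. Squalene synthase, Fdft1, was at 24.7 RPKM in controls and 26.2 in mutants, and squalene epoxidase, Sqle, at 49.8 and 51.3 RPKM. Sqle, an oxygen-dependent and often rate-limiting step, had the smallest difference of the 29 members, 0.04 on the log2 scale. Lanosterol synthase, Lss, which closes the sterol rings, had the largest of the 8, 0.50, at 7.25 and 10.6 RPKM. Cyp51, which demethylates lanosterol, was at 12.9 and 15.1 RPKM.

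Nsdhl and Hsd17b7, which act together to remove methyl groups from the sterol nucleus, were the only lower members of this stretch of the route. Nsdhl was at 33.1 RPKM in controls and 26.8 in mutants, and Hsd17b7, the lowest of the 8, at 3.23 and 2.33 RPKM. The late enzymes were on the higher side. Sc5d, a sterol desaturase, was at 18.2 and 19.4 RPKM, and Dhcr7, the reductase that forms cholesterol, at 25.8 and 31.99 RPKM. Over the 14 sterol enzymes 10 were higher and 4 lower, with a median of 0.15, and the summed level was 311 RPKM in controls and 324 in mutants. In comparison, 52.6% of all genes with reads were higher.

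The 5 SREBP regulators were divided, 2 higher and 3 lower. Srebf2 (chromosome 15, 82147269 to 82205379) was the member farthest below the control, at 27.6 RPKM in controls and 16.1 in mutants, 1.72-fold lower with a log2 difference of -0.74. Srebf1 (chromosome 11, 60199084 to 60224186) was at 9.59 and 13.0 RPKM, a log2 difference of 0.40. The paralogues thus differed in opposite directions, and the ratio of Srebf1 to Srebf2 was 0.347 in controls and 0.807 in mutants. Srebf2 nevertheless had the higher level of the pair in both groups. The value of Srebf1 covers all its isoforms, which could not be separated.

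Scap, the escort of the SREBPs, was at 16.4 RPKM in controls and 13.2 in mutants. Insig1, itself a well-known SREBP target, was at 13.6 and 16.7 RPKM, and Insig2, which is less dependent on SREBPs, at 22.8 and 20.96 RPKM. The ratio of Insig1 to Insig2 was 0.597 and 0.798. Insig2 was the more abundant of the pair in both groups.

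**Figure D3:**
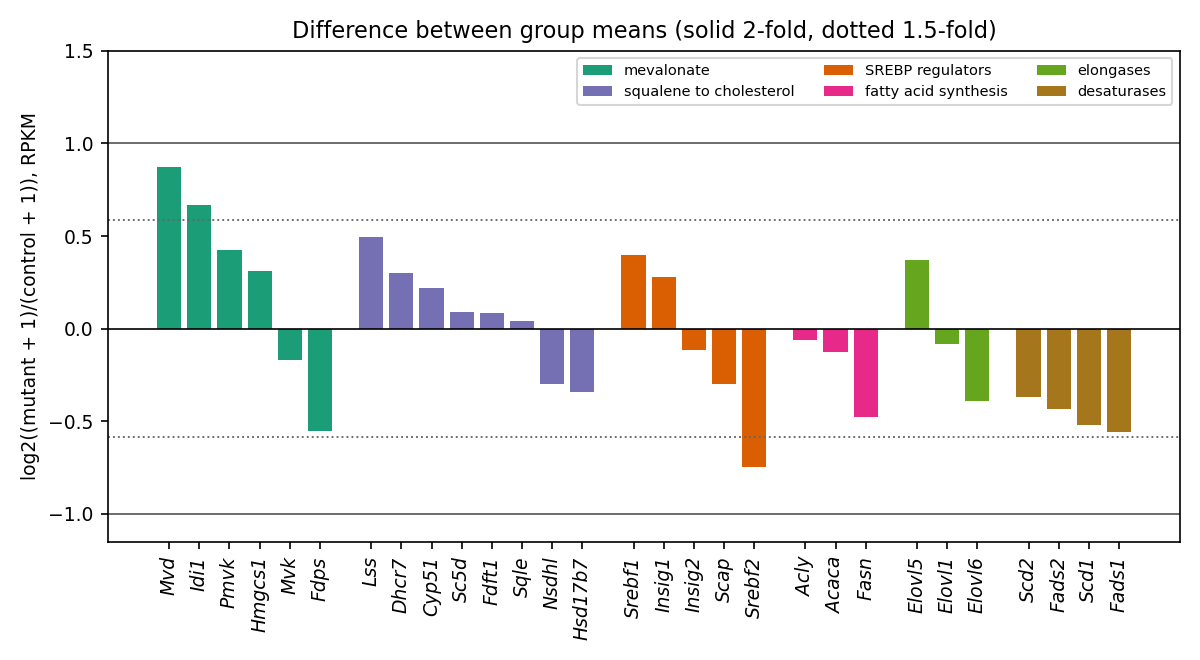
Difference between the group means of each member, log2((mutant + 1)/(control + 1)) in RPKM, ordered within each role. Solid lines mark 2-fold and dotted lines 1.5-fold. Mvd (0.87) and Idi1 (0.67) pass the upper dotted line, Srebf2 (-0.74) the lower, and all 7 bars of fatty acid synthesis and the desaturases point down.

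Of the 10 members of the fatty acid branch 9 were lower in mutants, and 3 of the 10 lay within 1.2-fold of the control. The median log2 difference was -0.38, against 0.02 over all genes with reads, of which 52.6% were higher. The 3 enzymes of de novo synthesis were all lower. Acly, which supplies cytosolic acetyl-CoA from citrate, was at 35.5 RPKM in controls and 33.9 in mutants. Acaca, the carboxylase that makes malonyl-CoA, was low, at 1.252 and 1.06 RPKM, about 515 and 519 reads per library at its long exon length. Fasn, the fatty acid synthase (chromosome 11, 120805958 to 120825166), was at 7.46 and 5.08 RPKM, a log2 difference of -0.48. The level of Acly was 4.76 times that of Fasn in controls and 6.68 times in mutants.

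The elongases, which lengthen acyl chains after synthesis, included the member with the highest level. Elovl1, which acts on saturated and very long chains, was the most abundant member in both groups, at 188 RPKM in controls and 177 in mutants, and made up much of the summed level of the 29 genes. Without it the sum was 543 and 527 RPKM. Elovl5, which acts on polyunsaturated chains, was at 24.1 and 31.6 RPKM and was the only member of this branch that was higher. Elovl6, which extends palmitate, was at 9.54 and 7.04 RPKM.

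All 4 desaturases were lower, while 52.6% of all genes with reads were higher. Their summed level was 64.0 RPKM in controls and 44.8 in mutants, and their median log2 difference was -0.48. Fads1, which acts late in making arachidonate (chromosome 19, 10182877 to 10196874), was at 30.6 and 20.5 RPKM, a log2 difference of -0.56. Fads2, which acts first on the same substrates (chromosome 19, 10062765 to 10101503), was at 19.0 and 13.8 RPKM. The ratio of Fads1 to Fads2 was 1.61 and 1.48. Their genes lie 81.4 kb apart, and Fads3, which lies 2.65 kb from Fads2 and is on the list of other fatty acid genes, was at 1.99 and 8.005 RPKM. This cluster thus held 2 genes lower and 1 gene higher in the mutant mean.

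Stearoyl-CoA desaturases make monounsaturated fatty acids. Scd2 was the main form in these cells, at 13.8 RPKM in controls and 10.4 in mutants. Scd1 (chromosome 19, 44394450 to 44407709), the chief form in liver and fat, was at 0.569 and 0.0937 RPKM, a 6.07-fold difference in the deposited means but -0.52 on the pseudocount scale. These levels correspond to about 66 reads per control library and 12 reads per mutant library, and whether they came from a single library is not known. The genes lie 87.6 kb apart, and 1.01% of the 100-base stretches of Scd1 were identical to Scd2.

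Other lipid genes were counted from lists written with earlier results of these data known. Of 6 other sterol synthesis enzymes with reads, 2 were higher and 4 lower, with a median of -0.12. None was 2-fold apart, beside 7.14% of all genes with reads. Lbr, a sterol reductase that is also the lamin B receptor, was at 43.0 RPKM in controls and 67.1 in mutants, a log2 difference of 0.63. Sc4mol, the sterol methyl oxidase that acts before Nsdhl, was at 15.4 and 10.7 RPKM. Lbr was thus on the side of Mvd and Idi1, and Sc4mol on that of Nsdhl and Hsd17b7.

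On the list of SREBP cleavage and sterol-regulated degradation, 11 of 13 genes with reads were on the higher side, against 52.6% of all genes with reads. The smallest of these differences was 0.001 on the log2 scale. The median of the list was 0.15, and 1 gene was 2-fold higher, beside 3.67% of all genes with reads. The 2-fold higher gene was Erlin2, a protein of lipid raft-like domains of the endoplasmic reticulum. It was at 4.87 RPKM in controls and 15.1 in mutants, a log2 difference of 1.46. Its partner Erlin1 was at 7.20 and 12.7 RPKM, a difference of 0.74. Both erlins were thus higher in the mutant mean.

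Of 15 genes of cholesterol uptake and trafficking, 9 were higher and 6 lower, with a median of 0.05. None was 2-fold apart, beside 7.14% of all genes with reads. Stard4, a cholesterol transfer protein and known SREBP-2 target, was at 12.5 RPKM in controls and 7.61 in mutants, a log2 difference of -0.65. Mylip, a ubiquitin ligase induced by the oxysterol receptor LXR, was at 6.28 and 3.64 RPKM. Stard4 was lower while Mvd and Idi1, also known targets of SREBP-2, were higher. Mvd and Idi1 were the highest of the 14 sterol enzymes among the members, of which 10 were higher and 4 lower. The part of SREBP-2 in these differences was not tested. Of 14 genes of efflux, storage and oxysterol metabolism, 9 were higher and 5 lower, with a median of 0.19. Of these genes 2 were 2-fold lower, beside 3.47% of all genes with reads. They were the sterol hydroxylases Cyp7b1, at 20.2 and 8.34 RPKM, and Cyp27a1, at 4.79 and 1.70 RPKM. Of 24 other genes of fatty acid synthesis, elongation and activation, 9 were higher and 15 lower, with a median of -0.06. Fads3 was the 1 gene that was 2-fold higher, beside 3.67% of all genes with reads. Acsl1, which activates long-chain fatty acids, was at 7.17 and 14.0 RPKM.

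**Figure D4:**
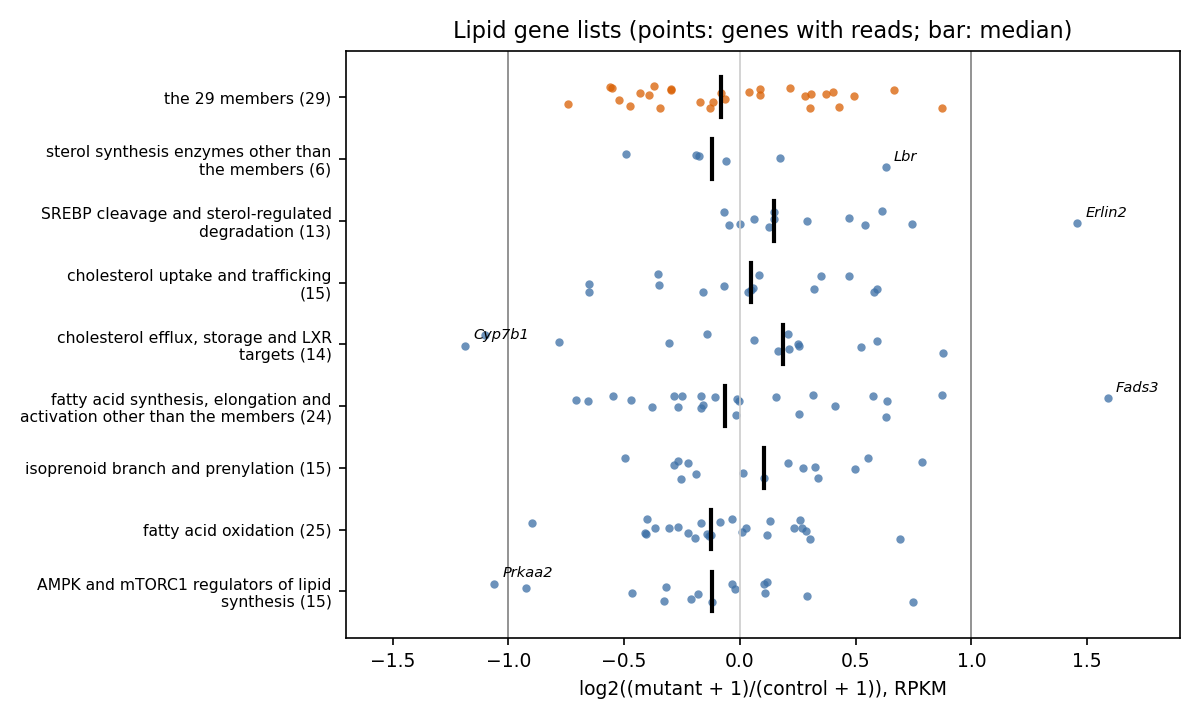
Log2((mutant + 1)/(control + 1)) of the members (orange) and of 8 lists of related genes (blue), 1 point per gene with reads, jittered vertically, with the number of genes in brackets and the median as a black bar. Grey lines mark 2-fold. The members stay inside them. Of the genes on the lists, Erlin2 and Fads3 lie to the right and Cyp7b1, Cyp27a1 and Prkaa2 to the left.

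Markers of the sorted cells and of other cells were read in the same means. All 7 genes listed as HSC markers had reads, 3 higher and 4 lower. Kit, Ly6a, Slamf1 and Cd48 encode proteins of the sorting gate, and Procr, Hlf and Mecom were not gated on. Ly6a, which encodes Sca1, was at 152 RPKM in controls and 167 in mutants. Slamf1, which encodes CD150, was at 25.9 and 27.1 RPKM. The lower genes include Cd48, which the sort selected against, at 5.33 RPKM in controls and 4.04 in mutants. The genes farthest apart were Kit, at 67.4 RPKM in controls and 39.9 in mutants, and Hlf, at 19.3 and 11.9 RPKM. Adipocyte genes are of interest because fat cells are rich in lipogenic enzymes. Adipoq, Plin1, Lep and Cidec were at the values of genes without reads in both groups, and Lipe was the only adipocyte gene of 8 above 1 RPKM, at 4.13 and 4.58 RPKM.

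In several marker lists 1 abundant gene made up most of the summed level, so the sum is given with and without it. Of 10 macrophage and monocyte markers with reads 8 were higher, beside 52.6% of all genes with reads. The smallest of these differences was 6.4e-05 on the log2 scale, and only 4 of the 10 reached 1 RPKM in a group. The sum of the list was 411 RPKM in controls and 304 in mutants. Lyz2, a lysozyme, made up 406 and 289 RPKM of this, and the other genes together were at 4.96 and 15.3 RPKM. They thus lay on the other side of the control level from the sum. Hmox1, which degrades haem, was at 2.03 and 10.4 RPKM, and the complement gene C1qa at 0.212 and 1.38 RPKM. The related gene C1qb went the other way, at 1.87 RPKM in controls and 0.904 in mutants, and C1qc was at 0.677 and 0.831 RPKM. Emr1 and Csf1r, which define macrophages, had no reads in either group.

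The erythroid sum, 1599 RPKM in controls and 1087 in mutants, was mostly Car2, a carbonic anhydrase also known from HSCs, at 1560 and 1021 RPKM. The other erythroid genes together were at 39.2 and 65.6 RPKM. The farthest apart were the beta globins, which were higher in mutants and, as near-identical copies, may share reads. Hbb-b1 was at 2.30 and 7.79 RPKM and Hbb-b2 at 7.32 and 19.4 RPKM. Of 8 erythroid genes with reads 4 were higher and 4 lower, and Car1 and Slc4a1 had none.

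The T and natural killer cell list held 4 genes with reads, 2 higher and 2 lower, with a sum of 127 and 111 RPKM. Ccl5, a chemokine of these cells, was at 0.270 RPKM in controls and 46.6 in mutants, a log2 difference of 5.23. Nkg7, a granule protein, went the other way, at 124 and 62.3 RPKM, so that the sum conceals both differences. Cd3e, Cd3g, Cd2 and Gzma had no reads in either group.

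Neutrophil markers were at 14.6 and 7.28 RPKM in sum, with 2 higher and 3 lower of 5 with reads. The granule genes Camp, at 6.37 and 0.562 RPKM, and S100a9, at 1.99 and 0.0710 RPKM, were lower, and Ltf and Ngp had no reads. The higher genes were Elane and Mpo, proteins of early granules, with Mpo at 0.0492 and 1.43 RPKM. Stromal and endothelial markers were at 23.8 and 54.6 RPKM in sum, of which Pecam1, an adhesion molecule also known from HSCs, was 22.0 and 50.1 RPKM. Sparc, a matrix protein, was at 1.34 and 3.90 RPKM, and Col1a1, Lepr and Pdgfra, which define stromal cells, had no reads. Of 5 such genes with reads 4 were higher, beside 52.6% of all genes with reads. Only 2 of the 5 reached 1 RPKM in a group.

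B and plasma cell markers were at 138 and 140 RPKM in sum, of which Cd79b was 132 and 133 RPKM. Igj, the joining chain of immunoglobulins, was at 1.59 and 0.0166 RPKM and Sdc1, a plasma cell surface protein, at 3.14 and 5.80 RPKM, while Cd79a, Ms4a1 and Igll1 had no reads. This list held 3 genes higher and 2 lower. Of 7 megakaryocyte markers 6 were higher, beside 52.6% of all genes with reads, with a sum of 210 and 220 RPKM. Ppbp was at 1.31 and 2.56 RPKM and Vwf at 6.44 and 8.23 RPKM. The part of these cells in the differences above was not tested.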

How the data were processed

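Each library was made by Smart-seq2 from 150 sorted HSCs and read as paired ends of 100 bases, per the labels' protocols, with 3 control and 4 mutant libraries grouped by their titles. The deposited values are RPKM, in 1 column per group, per the file headers. The headers name only the measure and the group, and the values were read as means over libraries. The submitters' processing notes name the build mm10 and, without their roles, Picard and edgeR. The aligner and annotation are not stated. In 8499 genes (36.9%) the mutant/control ratio was 0.841 (relative tolerance 1e-06), which was read as a gene without reads carrying a small added constant, 0.0414 RPKM in controls and 0.0349 in mutants on 1 kb. Because 1 value per group allows no test, the planned size rule was used, computed with pandas 2.3.3. Its code was run on control values multiplied by set factors, without added noise. That run checks the arithmetic only and tells nothing about false calls in these data. All members are described, and of each list the 2 genes farthest apart with at least 1 RPKM in a group are named, with defining markers that had no reads. Car2, Lyz2, Cd79b, Elane, Mpo, C1qb, C1qc and Prkaa1 were named after their values were seen, for their levels or direction. Ly6a and Slamf1 were named, also after their values were seen, as genes of the gate. Cd48 was named because the sort selected against it. Of the listed genes, 7 are not reported here and enter no list count. Members and lists were chosen with earlier results of these data known. Read numbers assume GENCODE M21 exon lengths and an added constant of 1 read. All 29 members matched RefSeq on GRCm38.p6, the assembly mm10 names. Alternatives were other pseudocounts, threshold, filter, scalings, subtraction of the constant, and the mean.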

Additional observations from a re-analysis of the deposited data

How the results depend on the processing

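No member changed the sign of its difference under the alternatives run. Pseudocounts and the filter cannot change a sign. The scalings, by factors of 1.02 and 0.992, and the subtracted constant were small. The unchanged signs were thus nearly fixed in advance and say little about the directions. Of 173 member values, 5 moved by over 1.5 times and by at least 0.1. With a pseudocount of 0.1 RPKM, 1 member was 2-fold higher (Idi1, 1.10) and 1 was 2-fold lower (Scd1, -1.79), and with none the counts were again 1 and 1 (Idi1 at 1.19, Scd1 at -2.60), because low genes then weigh more. All genes 2-fold higher and lower numbered 1508 and 1347 with 0.1 RPKM, and 1981 and 1674 with none, in place of 534 and 504. At 1.5-fold there were 1883 and 1516, with 2 members higher and 1 lower. The median of the list of SREBP cleavage and degradation was 0.296 with 0.1 RPKM, 0.349 with no pseudocount and 0.345 as a mean, in place of 0.149. By the mean, 2 lists changed sign: efflux and storage to -0.026 and other fatty acid genes to 0.052. For the lists the cause was not tested. Leaving out replicates was not run, because values per library are needed. No paired analysis was possible because each group was deposited as a single column. A gene at 1 RPKM and 1 kb corresponds to about 24.1 reads per control library, so Scd1 and Idi1 are the members whose values depth limits most.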

Other observations

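Genes that use the isoprenoids made by this route numbered 15, of which 9 were higher and 6 lower. Their median log2 difference was 0.11, and none was 2-fold apart, beside 7.14% of all genes with reads. Rce1, the protease that trims prenylated proteins, was at 69.3 RPKM in controls and 120 in mutants. Fntb, the beta subunit of farnesyltransferase, was at 7.19 and 11.0 RPKM. Both were higher while Fdps, which makes the farnesyl donor, was lower, at 63.7 and 43.1 RPKM.

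Fatty acid oxidation, the opposing route, had 25 genes with reads, 10 of them higher and 15 lower. None was 2-fold apart, beside 7.14% of all genes with reads. The median was -0.13. The genes farthest apart were low: Ppard, a nuclear receptor that induces oxidation genes, was at 1.34 and 0.256 RPKM, and Cpt1c, a carnitine palmitoyltransferase relative known from brain, at 0.344 and 1.17 RPKM. Of 15 AMPK and mTORC1 pathway genes with reads, 5 were higher and 10 lower, with a median of -0.12. Prkaa2, a catalytic subunit of AMPK, the kinase that inhibits the enzyme of Acaca, was at 1.78 and 0.333 RPKM. It was the only gene of this list 2-fold apart, beside 3.47% of all genes with reads 2-fold lower. The other catalytic subunit, Prkaa1, had the higher level, at 5.40 RPKM in controls and 5.31 in mutants. Lpin2, a phosphatidate phosphatase, was at 12.0 and 5.86 RPKM. No spread between animals is known for any of these values.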
